A study of Mus musculus with 20 samples.

Results

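Tumours of mice given immune checkpoint blockade alone (ICB, antibodies to CTLA-4 and PD-L1) were compared with tumours of untreated mice, across all genes with enough reads to be tested. The comparison holds 6 of the 20 RNA-seq libraries of the study, 3 with ICB and 3 controls, each from a mouse of its own per the sample titles. Of the annotated genes, 18144 were tested. All mice were female C57/BL6 animals that had ID8 cells placed in the peritoneal cavity, a line of transformed epithelium from the surface of the mouse ovary. The ID8 cells carried luciferase and were Trp53-/-Brca1-/-, so the controls lack both genes in the cancer cells too, and their stroma and immune cells come from a host that has them. Control mice received no drug. ICB mice received 100 µg of anti-CTLA-4 and 200 µg of anti-PD-L1 by intraperitoneal injection 2 times a week. Libraries used for comparison came from 3 mice given olaparib, an inhibitor of the PARP enzymes (PARPi, 40 mg/kg/day by mouth), and from 3 mice given olaparib with both antibodies. The labels give no age, no number of days of treatment and no number of the clones behind the cell line.

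CTLA-4 is a receptor on T cells that competes with CD28 for its ligands and restrains T cell priming. PD-L1, carried by tumour and myeloid cells, engages PD-1 on activated T cells and lowers their response. Antibodies to both are given to release T cells, whose interferon-gamma induces antigen presentation genes, guanylate-binding proteins and chemokines in the cells around them. In tumours with a humoral response, B cells can mature into plasma cells, which secrete immunoglobulin and assemble IgM with the joining chain.

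Library totals ran from 29.3 to 31.4 M reads in the controls and from 30.2 to 32.5 M with ICB, so depth was close in both groups. Levels are given below as CPM, the reads of a gene per M reads of the effective library size. Krt19 and Upk3b, an epithelial keratin and a mesothelial uroplakin, were read in every library, at 220 to 403 CPM and at 94.7 to 258 CPM, as markers of the labelled tissue. Total Trp53 reads were alike in both groups at 54.6 to 59.9 CPM. Those of Brca1 were 17.4, 18.7 and 19.3 CPM in the controls and 10.7, 13.3 and 17.4 CPM with ICB, with an adjusted p of 0.27 in edgeR's quasi-likelihood test. Where the edits lie in these genes is not given in the sources used here, and host cells carry both, so these levels check no genotype. 1 library stood apart. Pancreatic acinar genes had a mean of 3.74 log2 CPM in ICB replicate 3, against at most 0.80 in a control and at most -1.51 in the other ICB libraries. The same library was the highest of the 6 for the macrophage and neutrophil lists. Values that rest on it are named below.

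3 RNAs separated the groups as a whole. The nuclear RNA Rn7sk, which holds back transcription elongation, gave 58, 124 and 77 reads in the controls and 10, 8 and 14 with ICB. It fell by 3.06 ± 0.61 on the log2 scale (SE, adjusted p = 0.0166). Mir6236 stood at 82.1, 76.8 and 77.4 CPM in the controls and at 39.4, 26.0 and 27.6 CPM with ICB, without passing the test (adjusted p = 0.078). With Lars2, described below, their mean was 4.47 to 4.82 log2 CPM in the controls, 2.74 to 3.08 with ICB, 2.99 to 4.31 with PARPi and 2.95 to 3.53 with both. When this mean entered the model as a covariate, 0 genes passed the threshold between ICB and control, and 1937 had an unadjusted p under 0.05. The called genes kept their direction in that fit. They had been chosen for their difference in the same libraries, so this is no independent check. Of the 223 genes called higher without the covariate, 223 stayed positive, with a median log2 change of 0.88 in place of 0.81, and of the 177 called lower, 177 stayed negative, with -0.56 in place of -0.64. Mir6236, which is part of that mean, turned to 0.53 there. The mean does not overlap between control and ICB, so within these groups it cannot be told apart from the treatment.

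**Figure D1:**
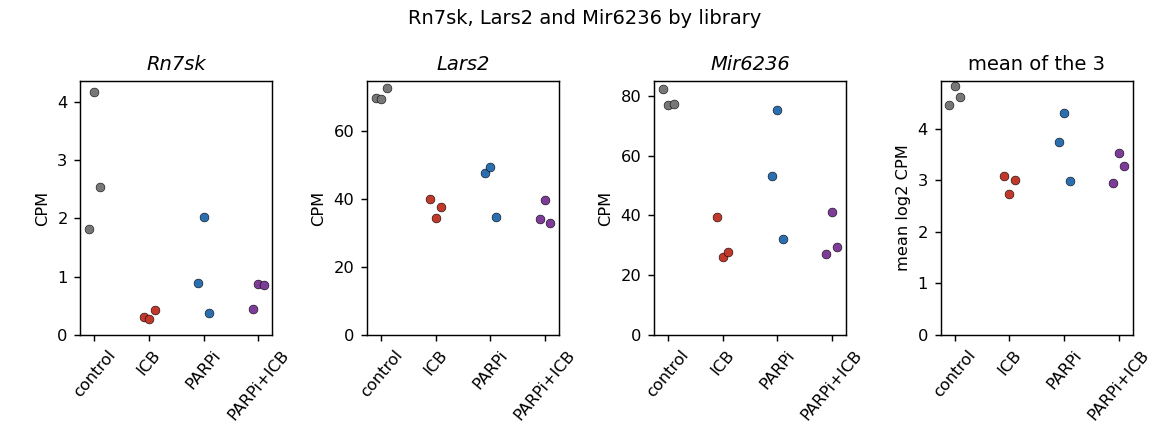
CPM of Rn7sk, Lars2 and Mir6236 in the 3 libraries of each of 4 groups, and the mean log2 CPM of these genes in the panel at the right. Each point is a library. The ICB libraries sit at 2.74 to 3.08 in that panel, below the controls at 4.47 to 4.82.

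The groups differed at a small share of the genes. At an adjusted p under 0.05, 400 of 18144 genes (2.2%) were called by edgeR, of which 223 (1.23%) were higher and 177 (0.976%) lower with ICB. In bulk tissue, a change in the number of cells of a type and a change in RNA per cell cannot be told apart. The called genes with over a 2-fold change were 81 higher and 43 lower. At an unadjusted p under 0.05 there were 1709 higher (9.42%) and 1491 lower (8.22%). The 3 ICB libraries lay above all 3 controls for 2122 genes (11.7%) and below all of them for 1883 (10.4%). The shares in this paragraph are those to set beside the counts of list members below. The median log2 change over all genes was 0.00. Calls depended on which libraries were present: without control replicate 2, 72 genes were called, without ICB replicate 2, 106, without control replicate 3, 137, without ICB replicate 1, 148, without control replicate 1, 182, and without ICB replicate 3, 316. DESeq2 called 1015 genes. Called in each of the 6 fits that leave out 1 library were 11 genes that were higher and 24 that were lower. Every other called gene described below lost its call in at least 1 of these fits.

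The gene with the smallest p among those that rose was Ly6d, a GPI-anchored surface protein of early B lineage and stratified epithelial cells. It stood at 3.21, 3.26 and 5.62 CPM in the controls and at 12.2, 12.4 and 12.6 CPM with ICB, so every ICB library exceeded the highest control by more than the spread of either group. The log2 change was 1.62 ± 0.20 (SE, adjusted p = 0.00218). Pou2af1, the B cell coactivator of octamer-binding factors, rose from 14.8, 14.5 and 18.4 to 43.0, 49.6 and 51.8 CPM, a log2 change of 1.60 ± 0.27 (adjusted p = 0.00958). Il12rb1, a chain of the receptors for interleukins 12 and 23 on T and NK cells, rose from 3.65, 4.03 and 3.54 to 7.29, 8.14 and 9.05 CPM (log2 change 1.12 ± 0.18, adjusted p = 0.00958). Neither gene's groups overlapped.

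Other genes that rose in every leave-out fit have roles outside lymphocytes. Serpinf1, which encodes the secreted antiangiogenic serpin PEDF, rose from 114, 103 and 103 to 172, 167 and 157 CPM (log2 change 0.63 ± 0.10). Nfasc, the neuronal adhesion protein neurofascin, rose from 6.04, 7.76 and 4.46 to 13.5, 15.7 and 15.4 CPM (1.29 ± 0.21). Nkd2, an antagonist of Wnt signalling that binds Dishevelled, rose from 33.9, 38.9 and 32.8 to 65.8, 63.6 and 55.4 CPM (0.81 ± 0.14). The groups did not overlap for these genes. Cpne8, a calcium-dependent phospholipid-binding copine, had the lowest adjusted p of this group, 0.00712, at a log2 change of 0.68 ± 0.10. Rab11fip4, an effector of Rab11 in recycling endosomes, changed by 1.22 ± 0.19, Zmynd15, a transcriptional repressor known from spermatids, by 0.49 ± 0.08, and Scand1, a SCAN domain protein with at most 2.89 CPM in these 6 libraries, by 2.52 ± 0.41. Mcpt1, a chymase of mucosal mast cells, rose from 1.32, 1.11 and 1.16 to 4.28, 5.45 and 6.95 CPM (log2 change 2.21 ± 0.53, adjusted p = 0.0347), but it was called in 0 of the 6 leave-out fits.

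Chil3 had the largest fold of the genes in the plot of levels by library. It encodes the chitinase-like protein Ym1 of alternatively activated macrophages. Its reads numbered 4, 12 and 6 in the controls and 170, 117 and 1531 with ICB. The groups were far apart, and the height of the ICB mean, 18.8 ± 24.5 CPM (SD, n = 3), was set by ICB replicate 3. The log2 change was 6.27 ± 1.12 (adjusted p = 0.0124), and 4.24 without that library (adjusted p = 0.0252). The call held in 5 of the 6 leave-out fits and was lost without control replicate 2 (adjusted p = 0.0505). Retnla, another product of these macrophages, stood at 0.535, 0.571 and 0.562 CPM in the controls and at 1.98, 1.86 and 17.6 CPM with ICB, again with replicate 3 the highest. Its log2 change was 3.68 ± 1.00 (adjusted p = 0.0625), and 1.78 without that library (adjusted p = 0.325).

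Cobll1 had the smallest p of all 18144 genes. This gene encodes an actin-binding protein related to cordon-bleu. It fell from 60.7, 60.7 and 55.0 CPM to 27.3, 28.9 and 32.1 CPM, a log2 change of -0.998 ± 0.112 (adjusted p = 0.000967). Lars2, named for the mitochondrial leucyl-tRNA synthetase, fell from 69.8, 69.4 and 72.8 to 40.1, 34.4 and 37.8 CPM (-0.92 ± 0.15). It is among the RNAs of the covariate above, which separated the groups as a whole. Sptb, the beta spectrin of the red cell membrane skeleton, fell from 113, 118 and 99.5 to 61.0, 55.3 and 58.9 CPM (-0.92 ± 0.15). In these genes the spread within each group was small beside the gap between the groups.

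Pgc, the gastric proenzyme pepsinogen C, fell from 35.2, 48.0 and 36.2 to 6.22, 9.76 and 3.38 CPM (log2 change -2.62 ± 0.45, adjusted p = 0.0102). Anxa13, an annexin of intestinal and kidney epithelium, fell from 4.50, 5.41 and 3.51 to 0.817, 0.133 and 1.29 CPM (-2.56 ± 0.49, adjusted p = 0.0154). Ano1, a calcium-activated chloride channel, fell from 171, 153 and 140 to 94.8, 92.9 and 104 CPM (-0.67 ± 0.12), again with no overlap. Gcnt1, the core 2 O-glycan branching enzyme, fell by 0.89 ± 0.14 on the log2 scale and Tmem255a, a membrane protein, by 0.88 ± 0.14. Tppp, which bundles microtubules, stood at 8.75, 10.04 and 9.82 CPM in the controls and at 1.79, 2.32 and 4.92 CPM with ICB (-1.66 ± 0.27). The ephrin receptor Epha4 changed by -1.11 ± 0.18, the actin nucleator Fmn1 by -0.87 ± 0.14, the fibril-associated collagen Col14a1 by -0.87 ± 0.15 and the coiled-coil gene Ccdc81 by -1.26 ± 0.21. The adjusted p of these genes was 0.0154 or lower.

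**Figure D2:**
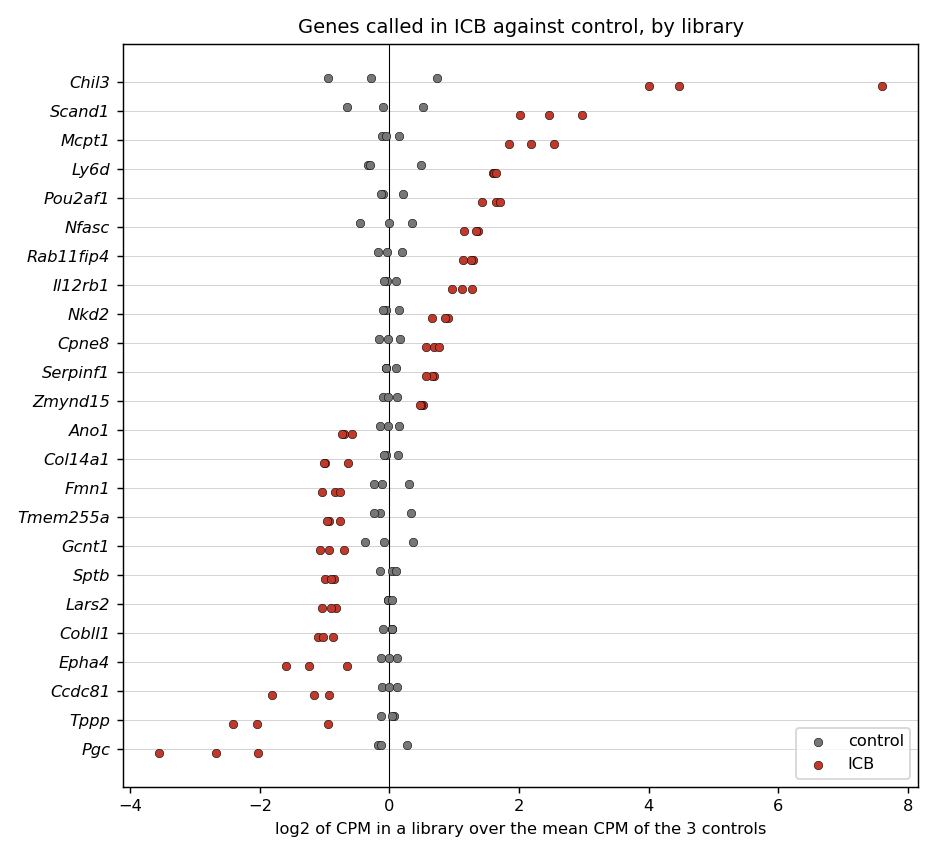
Levels in each library of the called genes named by rule for the largest changes in each direction. They are shown as the log2 of CPM over the mean of the 3 controls, with ICB libraries below control libraries in each line. Retnla and Anxa13, described above, are not in the plot. In each line the 3 ICB points lie on one side of the 3 control points, and the widest spread is that of Chil3, where ICB replicate 3 had 47.1 CPM and the others 5.34 and 3.89.

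Plasma cell genes were the list with the largest share of calls among the lists described here. Of 12 tested members 8 were called higher and 0 lower, 12 of 12 had a positive log2 change and the median was 1.22, against a median of 0.00 over all genes. The libraries did not overlap for 11 of the 12. Over all genes, 1.23% were called higher and 11.7% lay above all controls. The summed level of the list was 1162, 1148 and 1509 CPM in the controls and 2968, 3142 and 2463 CPM with ICB. With PARPi alone it was 3394, 3226 and 2139 CPM. Jchain, the joining chain of polymeric IgM and IgA, rose from 515, 516 and 867 to 2084, 2221 and 1607 CPM (log2 change 1.64 ± 0.37, adjusted p = 0.025). Irf4, which drives plasma cell differentiation, rose from 10.7, 11.1 and 13.4 to 32.1, 37.8 and 36.7 CPM (1.60 ± 0.31, adjusted p = 0.0154). Prdm1, which encodes the repressor Blimp-1, rose from 8.88, 9.77 and 8.47 to 15.4, 18.7 and 17.4 CPM (0.93 ± 0.18, adjusted p = 0.0158). The groups were apart for all of these. Tnfrsf13b and Tnfrsf17, the survival receptors TACI and BCMA, changed by 1.10 ± 0.24 and 1.62 ± 0.35, the chaperone Mzb1 by 1.63 ± 0.42 and the ER degradation factor Derl3 by 1.33 ± 0.34. Xbp1, the transcription factor of the secretory programme, stood at 216, 210 and 193 CPM and at 275, 298 and 260 CPM, which did not pass the test (adjusted p = 0.125). With 1 library left out, 1 to 6 of the 12 were called, fewest without control replicate 2.

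Immunoglobulin constant region genes were led by Ighm, the heavy chain of IgM. Ighm stood at 1325, 658 and 1086 CPM in the controls and at 5405, 2921 and 8679 CPM with ICB. Even the lowest ICB library was above the highest control, and the call held in all 6 leave-out fits (log2 change 2.47 ± 0.41, adjusted p = 0.00958). Igkc, the kappa light chain, rose from 3576, 4394 and 5899 to 14434, 15688 and 12691 CPM (1.63 ± 0.35, adjusted p = 0.0231). Iglc3, a lambda light chain, rose from 27.7, 11.9 and 16.2 to 92.5, 44.6 and 100 CPM (2.09 ± 0.50, adjusted p = 0.0369), which was lost in each of the 6 leave-out fits. The other 9 constant region genes were not called. Igha, the heavy chain of IgA, stood at 1107, 1241 and 1901 CPM in the controls and 4216, 5980 and 2389 CPM with ICB, with no overlap but a wide spread (adjusted p = 0.167). Ighd, the IgD heavy chain carried by naive B cells, went the other way, with 3.56, 4.94 and 5.22 CPM in the controls and 1.10, 1.43 and 1.17 CPM with ICB (log2 change -1.89 ± 0.69, adjusted p = 0.156).

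Per kilobase of exon, so that the heavy chains can be set side by side, Ighm reached 702, 349 and 576 CPM per kb in the controls and 2866, 1549 and 4602 CPM per kb with ICB. Its share of all heavy chain constant region signal on that scale was 36.8%, 19.2% and 21.01% in the controls and 45.3%, 26.2% and 58.9% with ICB. These shares overlap between the groups. Among heavy chain variable segments, 4 of 89 tested were called higher and 0 lower, with a median log2 change of 2.83. For light chain variable segments 1 of 86 was higher and 0 lower, with a median of 1.89. The share called higher over all genes was 1.23%. A segment was tested if it had enough reads across the 6 groups, so some had almost none in the controls, which can enlarge these medians. Ighv2-6-8, for example, had 0.031, 0 and 0 CPM in the controls and 3.87, 1.30 and 0.246 CPM with ICB. Variable segments are close in sequence and reads can be assigned to the wrong one, so single segments are uncertain.

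**Figure D3:**
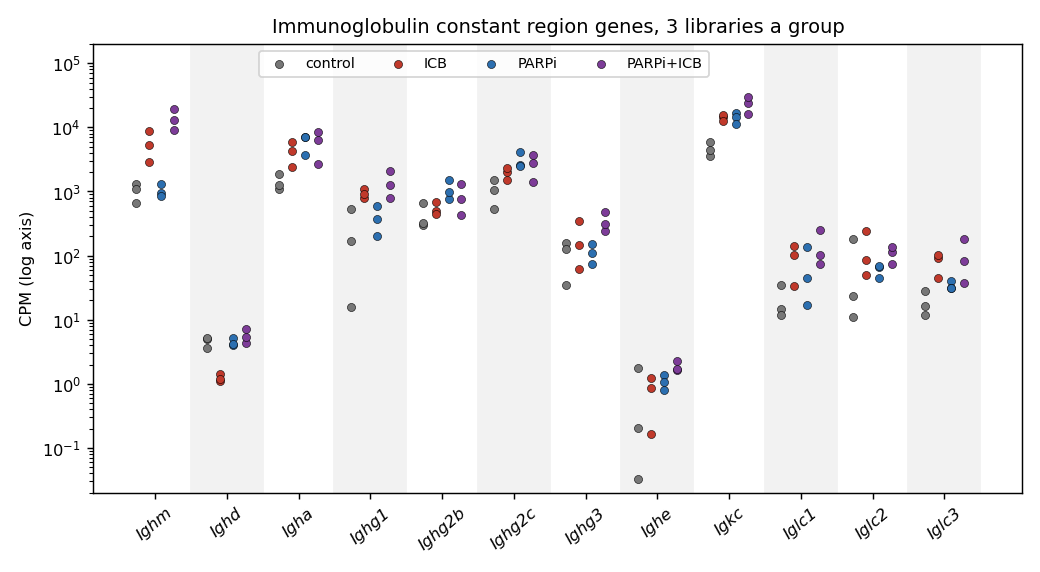
CPM of the 12 immunoglobulin constant region genes on a log axis, with 1 point for each of the 3 libraries of control, ICB, PARPi and PARPi+ICB. Ighm lies at 658 to 1325 CPM in the controls and at 2921 to 8679 CPM with ICB, and Ighd is lower with ICB than in the controls.

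Markers of mature B cells shared no direction. Of 15 tested, 0 were called higher and 2 lower, 6 had a positive and 9 a negative log2 change, and the median was -0.30. Over all genes, 1.23% were called higher and 0.976% lower. Cr2, the complement receptor CD21 of mature and follicular B cells, stood at 1.13, 2.59 and 3.60 CPM in the controls and 0.189, 0.266 and 0.954 CPM with ICB (-2.36 ± 0.59, adjusted p = 0.0452). Bank1, a B cell receptor scaffold, fell from 2.61, 3.09 and 2.94 to 1.23, 0.897 and 1.72 CPM (-1.16 ± 0.30, adjusted p = 0.0468). Both groups of values were apart, at low levels. Pax5, which maintains B cell identity and is shut off in plasma cells, had 2.83, 3.12 and 2.74 CPM against 1.07, 0.930 and 1.51 CPM (adjusted p = 0.0662). The 6 genes with a positive change included Cd79a and Fcrla, neither of them called. Cd79a, a chain of the B cell receptor complex, had a log2 change of 1.23 ± 0.35 (adjusted p = 0.0736) and Fcrla, an Fc receptor-like protein of the B lineage, one of 1.10 ± 0.29 (adjusted p = 0.0575). Cr2 was called in 2 of the 6 leave-out fits and Bank1 in 1.

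T cell genes were all on the higher side. All 20 tested had a positive log2 change, and the median was 0.78. Of these, 16 had no overlap between the groups and 18 had an unadjusted p under 0.05, but 3 were called after adjustment. Among all genes, 11.7% lay above all controls, 9.42% were higher at that unadjusted p and 1.23% were called higher. The summed level was 159, 190 and 165 CPM in the controls and 211, 250 and 228 CPM with ICB. With PARPi alone it was 254, 221 and 218 CPM. Lat, the adaptor that links the T cell receptor to its signalling, rose from 3.65, 4.37 and 3.14 to 6.73, 7.21 and 6.80 CPM (log2 change 0.89 ± 0.20, adjusted p = 0.0255). Cd3d, a chain of the CD3 complex, rose from 2.58, 2.65 and 2.35 to 3.80, 5.08 and 5.38 CPM (0.91 ± 0.23, adjusted p = 0.0467), and Cd4, the coreceptor of helper T cells that some myeloid cells also carry, from 13.3, 18.3 and 13.8 to 25.4, 31.2 and 24.7 CPM (0.84 ± 0.22, adjusted p = 0.0489). Cd3e, another CD3 chain, had 4.47, 6.52 and 4.83 CPM against 8.39, 11.3 and 10.4 CPM (adjusted p = 0.064). With any 1 of the 6 libraries left out, 0 of the 20 were called by edgeR. DESeq2 called 12.

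Cytotoxic genes had positive changes and no call. The median log2 change of 14 tested was 0.80, 14 were positive, 10 had an unadjusted p under 0.05 and 0 were called by edgeR, against 3 by DESeq2. Among all genes, 9.42% were higher at that unadjusted p. Without ICB replicate 3, 8 of the 14 were higher at that unadjusted p, and the median was 0.67. Cd8a, the coreceptor of cytotoxic T cells, stood at 5.29, 7.25 and 4.93 CPM in the controls and at 6.76, 11.7 and 12.2 CPM with ICB, where the groups overlap (0.81 ± 0.28, adjusted p = 0.129). Cd8b1, its partner chain, had 2.46, 2.82 and 1.55 CPM against 2.96, 4.38 and 4.46 CPM (adjusted p = 0.112). Eomes, a transcription factor of effector and memory cells, had 0.661, 0.739 and 0.298 CPM against 1.13, 0.930 and 1.11 CPM (adjusted p = 0.105). Ctsw, a cathepsin of CD8 and NK cells, had a log2 change of 0.62 ± 0.19 (adjusted p = 0.0974). For natural killer cell genes the median was 0.26, with 0 of 10 called and 1 with an unadjusted p under 0.05, and DESeq2 called 0. Among 11 regulatory T cell genes the median was 0.51 and Lrrc32, the GARP protein that holds latent TGF-beta on these cells, was called, from 9.51, 11.8 and 9.66 to 16.5, 15.4 and 18.4 CPM (adjusted p = 0.0395). The share called higher over all genes was 1.23%.

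The targets of the antibodies did not pass the test. Cd274, which encodes PD-L1, stood at 31.4, 39.9 and 29.9 CPM in the controls and at 42.8, 48.3 and 58.2 CPM with ICB. The groups were apart, with a log2 change of 0.56 ± 0.19 and an adjusted p of 0.129. Ctla4 had 3.71, 3.80 and 1.62 CPM against 4.46, 5.02 and 5.63 CPM (0.73 ± 0.32, adjusted p = 0.253), and Pdcd1, which encodes PD-1, had 3.65, 6.28 and 3.11 CPM against 5.69, 5.91 and 4.89 CPM, which overlap (adjusted p = 0.539). Pdcd1lg2, the second PD-1 ligand, stood at 1.26, 1.75 and 1.26 CPM against 2.23, 3.22 and 4.43 CPM (1.21 ± 0.37, adjusted p = 0.0952). Over the 14 checkpoint ligands and receptors the median was 0.38, all 14 were positive, 9 had an unadjusted p under 0.05, and 0 were called by edgeR and 3 by DESeq2. Among all genes, 9.42% were higher at that unadjusted p. Without ICB replicate 3, which stood apart, 4 of the 14 were higher at that unadjusted p, and the median was 0.41.

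Genes induced by interferon-gamma had positive changes, most of them short of the adjusted threshold. Of 19 interferon-gamma-inducible genes tested, 19 had a positive log2 change, 18 an unadjusted p under 0.05 and 13 no overlap between the groups. The median was 0.53. For comparison, 9.42% of all genes were higher at that unadjusted p and 11.7% lay above all controls. Without ICB replicate 3, 13 of the 20 members tested in that fit were higher at that unadjusted p, and their median was 0.41. The summed level was 1784, 2346 and 1893 CPM in the controls and 2451, 3082 and 3355 CPM with ICB. The single call was Socs1, the feedback inhibitor of JAK kinases, which rose from 1.70, 1.58 and 1.42 to 3.46, 2.99 and 2.95 CPM (1.00 ± 0.25, adjusted p = 0.0452) and was lost with any 1 of the 6 libraries left out. Igtp, an immunity-related GTPase, had 69.6, 93.7 and 70.5 CPM against 112, 141 and 151 CPM (0.79 ± 0.21, adjusted p = 0.057). Gbp5, a guanylate-binding protein, had 42.2, 57.0 and 51.0 CPM against 60.9, 90.4 and 97.6 CPM (adjusted p = 0.0784). Irf8, a transcription factor of myeloid and B cells, had 29.9, 34.1 and 28.9 CPM against 40.0, 45.5 and 41.4 CPM (adjusted p = 0.0721). All of them were apart, and DESeq2 called 12 of the 19.

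Of 27 type I interferon-stimulated genes, 15 were positive and 12 negative, with a median of 0.01. The share called higher over all genes was 1.23%. 1 was called, Ifit2, whose protein binds viral RNA, from 46.1, 57.2 and 47.7 to 63.0, 79.7 and 93.6 CPM (0.65 ± 0.16, adjusted p = 0.0434). Zbp1, a sensor of left-handed nucleic acids that interferon-gamma also induces, had 50.7, 63.7 and 54.6 CPM against 74.4, 83.9 and 101 CPM (adjusted p = 0.0891). The lists were described by their counts and medians, and their difference was not tested.

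Promoters of interferon-gamma-inducible genes are known to hold the gamma-activated sequence TTCNNNGAA. In RefSeq promoter windows of GRCm38.p6, from 250 bases before to 50 after each gene's start, these letters occurred in 8.3% of 32851 windows on either strand. They occurred in 8 of the 17 windows of interferon-gamma-inducible genes, which cover 14 of the 20 members, and in 2 of 20 windows of type I genes. The stretches around the matches before the start of these 8 members are shown because all tested members of this list had a positive change. Capitals mark the 9 matched letters, and each is written 5′ to 3′ on the strand of its gene.
Igtp: aactagccatTTCTAGGAActgaaactga
Irgm2: aactagccatTTCCAGGAActgaaactga
Tgtp1: aactagccatTTCCAGGAAtcgaaactga
Tgtp2: agctagccatTTCCAGGAAtcgaaaccga
Gbp5: tggccgttatTTCTCAGAAccaagcacag
Gbp7, first match: tccgttttctTTCCAGGAAaagcagaagc
Gbp7, second match: aagcagaagcTTCTCAGAAagtcagcaca
Irf8, first match: caaaagtgatTTCTCGGAAagagagcgct
Irf8, second match: aagagagcgcTTCAGAGAAggcggatttg
Irf1: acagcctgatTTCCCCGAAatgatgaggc
The stretch of Igtp lies at chr11:58199501-58199529 on the plus strand, and its match begins 45 bases before the start of the gene. That of Irgm2 lies at chr11:58214892-58214920 on the plus strand, and its match begins 75 bases before. Those of Tgtp1 (chr11:48992316-48992344) and Tgtp2 (chr11:49064275-49064303) lie on the minus strand, and their matches begin 88 and 81 bases before. The stretches of these 4 GTPase genes resemble each other on both sides of the match, and Tgtp1 and Tgtp2 are so close in sequence that their reads may be shared. Gbp5 holds the match at chr3:142496872-142496900, Gbp7 at chr3:142530220-142530248 and chr3:142530239-142530267, Irf8 at chr8:120736177-120736205 and chr8:120736195-120736223, and Irf1 at chr11:53769914-53769942, all on the plus strand. The log2 changes of Irgm2, Tgtp1, Tgtp2 and Gbp7 with ICB were 0.51, 0.53, 0.57 and 0.48, and that of Irf1, a transcription factor of the interferon response, was 0.23 at 166, 169 and 162 CPM against 178, 196 and 207 CPM. None of these 5 passed the test (adjusted p = 0.0896, 0.128, 0.107, 0.191 and 0.23). A match in these windows describes letters and not binding.

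Antigen presentation genes were higher by small amounts with little spread. Of 18 MHC class I presentation genes, 5 were called higher, 17 were positive, 15 had no overlap and the median was 0.35. Among all genes, 1.23% were called higher and 11.7% lay above all controls. Tap2, a subunit of the peptide transporter of the endoplasmic reticulum, rose from 126, 119 and 122 to 173, 167 and 183 CPM (0.51 ± 0.09, adjusted p = 0.0135) and was called in 5 of the 6 leave-out fits, at 0.0543 in the fit without control replicate 2. The nonclassical class I gene H2-T23 rose from 132, 129 and 123.5 to 185, 175 and 174 CPM (0.47 ± 0.11, adjusted p = 0.0272). Tapbpl, the peptide editor TAPBPR, rose from 19.3, 22.3 and 21.3 to 28.6, 30.5 and 32.2 CPM (0.54 ± 0.13, adjusted p = 0.0434). The groups were well apart in all of these. H2-Q4 and H2-Q7 were also called, with log2 changes of 0.69 ± 0.14 and 0.73 ± 0.17, though genes of the Q region are near copies of each other whose reads may be split between them. With 1 library left out, 1 or 2 of the 18 were called.

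Of 10 MHC class II presentation genes, 2 were called higher and the median was 0.51. Among all genes, 1.23% were called higher and 9.42% were higher at an unadjusted p under 0.05. H2-Eb1, a class II beta chain, rose from 648, 656 and 564 to 902, 915 and 854 CPM (0.52 ± 0.12, adjusted p = 0.0314), and H2-Ab1, the other beta chain, from 627, 658 and 579 to 858, 922 and 868 CPM (0.51 ± 0.13, adjusted p = 0.0464). Neither overlapped between groups, and 0 of the 10 were called with any 1 of the 6 libraries left out, while 8 had an unadjusted p under 0.05 with all of them and DESeq2 called 6.

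Of 19 macrophage genes 2 were called higher, against 1.23% of all genes. At an unadjusted p under 0.05, 7 had a higher level and 1 a lower one, against 9.42% and 8.22% of all genes. The median of the list was 0.26. Without ICB replicate 3, which stood apart, 0 were called higher and 1 lower, with 6 and 3 at an unadjusted p under 0.05 and a median of 0.12. DESeq2 called 4 higher with all libraries. Ly6c2, a marker of inflammatory monocytes, rose from 19.3, 19.8 and 46.2 to 71.9, 81.5 and 98.1 CPM (1.56 ± 0.34, adjusted p = 0.0229), with control replicate 3 the nearest to the ICB libraries, and changed by 1.43 without ICB replicate 3 (adjusted p = 0.0558). C1qc, a chain of the first complement component made by macrophages, rose from 147, 157 and 149 to 206, 197 and 223 CPM (0.47 ± 0.12, adjusted p = 0.0452), and by 0.41 without that library (adjusted p = 0.115). Of 15 chemokine genes 3 were called higher, 6 had a higher level at an unadjusted p under 0.05, and the median was 0.18. Ccl8, a ligand for monocytes and T helper 2 cells, rose from 5.38, 6.18 and 2.94 to 14.7, 12.8 and 17.4 CPM (1.63 ± 0.38, adjusted p = 0.0314). Ccl3, also known as MIP-1 alpha, rose from 1.86, 2.15 and 2.05 to 4.02, 3.99 and 2.89 CPM (0.85 ± 0.21, adjusted p = 0.0414), and the membrane-bound chemokine Cx3cl1 from 120, 98.9 and 110 to 138, 168 and 152 CPM (0.48 ± 0.11, adjusted p = 0.0272). None of these chemokines overlapped between groups. Csf3r, the G-CSF receptor of neutrophils, rose from 11.1, 14.5 and 12.004 to 19.0, 18.7 and 20.1 CPM (0.62 ± 0.13, adjusted p = 0.0183). It was the only call among 12 neutrophil genes, whose summed level was 17.3, 25.1 and 17.3 CPM in the controls and 29.7, 20.9 and 106 CPM with ICB, highest in replicate 3. The median of the list was 2.53 with 7 genes higher at an unadjusted p under 0.05, and 0.24 with 1 without that library, where Csf3r stayed called (adjusted p = 0.0491). Prg2, the major basic protein of eosinophil granules, rose from 3.59, 6.08 and 8.30 to 14.995, 21.5 and 15.8 CPM (1.54 ± 0.33, adjusted p = 0.0223).

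Among 23 fibroblast and matrix genes the median was 0.18, and -0.03 without ICB replicate 3. Of these 1 was called higher, where the share over all genes was 1.23%. This was Loxl1, a lysyl oxidase-like enzyme that crosslinks elastin, which rose from 48.0, 44.9 and 49.6 to 74.5, 62.7 and 69.8 CPM (0.54 ± 0.12, adjusted p = 0.0227). Of 16 epithelial and mesothelial genes 1 was called higher and 2 lower, against 1.23% and 0.976% of all genes. Upk3b fell from 254, 258 and 187 to 130, 163 and 94.7 CPM (-0.85 ± 0.19, adjusted p = 0.0247) and Krt19 from 403, 320 and 364 to 275, 220 and 274 CPM (-0.50 ± 0.11, adjusted p = 0.0272). Epcam, an epithelial adhesion molecule, rose at a low level, from 1.86, 1.68 and 1.65 to 3.99, 3.39 and 3.75 CPM (1.10 ± 0.26, adjusted p = 0.0333). The groups were apart for each gene, and the markers did not share a direction.

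Mitosis and hypoxia genes had mostly negative changes, none of which passed the test. All 20 mitosis genes had a negative log2 change, with a median of -0.38, 12 with an unadjusted p under 0.05 and 7 with no overlap. By edgeR 0 were called, and by DESeq2 2. For comparison, 8.22% of all genes were lower at that unadjusted p and 10.4% lay below all controls. Their summed level was 1397 to 1491 CPM in the controls and 846 to 1359 CPM with ICB. Kif11, the spindle motor Eg5, had 83.9, 85.9 and 91.0 CPM against 51.9, 66.3 and 73.2 CPM (adjusted p = 0.0891), and Ccna2, which encodes cyclin A2, 89.3, 83.1 and 85.7 CPM against 50.4, 63.0 and 81.1 CPM (adjusted p = 0.136). Both were lowest in ICB replicate 1, and without ICB replicate 3 the median was -0.54 and 4 mitosis genes were called lower. Of 25 hypoxia and glycolysis genes 22 were negative, 15 had an unadjusted p under 0.05, and the median was -0.32, with 0 called by edgeR and 5 by DESeq2. Eno1, a glycolytic enolase, had 556, 549 and 462 CPM against 356, 382 and 421 CPM (adjusted p = 0.0863). Vegfa, the angiogenic factor, had 768, 765 and 613 CPM against 458, 532 and 491 CPM, a log2 change of -0.54 ± 0.19 (adjusted p = 0.15) that became 0.013 with the covariate of the 3 RNAs. Of 8 erythroid genes 8 were negative, with a summed level of 41.3 to 134 CPM in the controls and 6.78 to 11.4 CPM with ICB. 7 had an unadjusted p under 0.05, and 0 were called by edgeR and 5 by DESeq2. Sptb, which red cells also express, fell in the same libraries, and the part of blood in its fall was not tested.

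**Figure D4:**
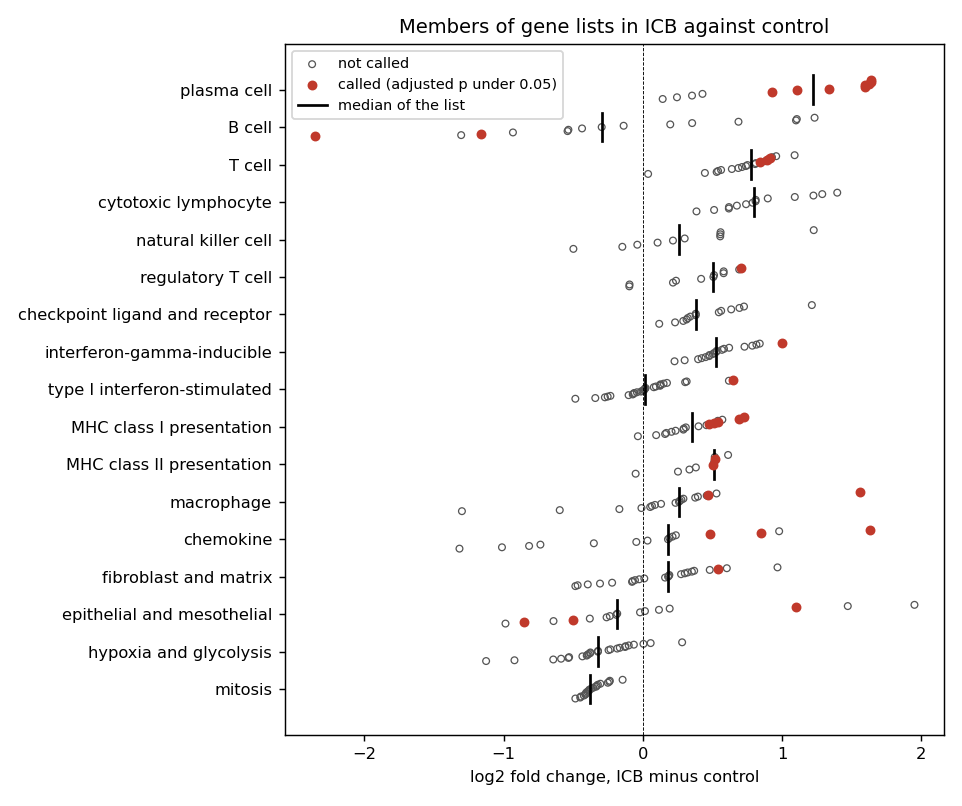
Log2 fold change, ICB minus control, of each tested member of 17 gene lists, with filled points for genes called at an adjusted p under 0.05 and a bar at the median of the list. The plasma cell members have a median of 1.22 and the T cell members one of 0.78, while the type I interferon-stimulated members lie around 0.01 and the mitosis members around -0.38.

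Adding the same antibodies to olaparib gave a comparison in 6 other libraries. In PARPi with ICB against PARPi, 229 genes (1.26%) were called, 160 (0.882%) higher and 69 (0.38%) lower. Of the 223 genes that ICB alone raised, 217 (97.3%) had a positive log2 change there too, against 48.7% of all genes, and of the 177 it lowered, 167 (94.4%) were negative, against 51.3% of all genes. The median change of these genes was 0.46 on PARPi and 0.81 alone for those that rose, and -0.31 and -0.64 for those that fell. They had been chosen for their change with ICB alone. Called both times were 38 genes that rose, which is 17.0% of the 223 and 23.8% of the 160, and 32 that fell, 18.1% of the 177 and 46.4% of the 69. None was called in opposite directions. All 20 libraries shared 1 estimate of the spread, and the call counts on PARPi ranged from 26 without PARPi replicate 2 to 293 without replicate 2 of the combination.

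Genes called on both backgrounds included Cobll1 (log2 change -0.55 on PARPi, adjusted p = 0.0219), Ly6d (0.97, adjusted p = 0.0216), Nfasc (1.57, adjusted p = 0.00213), Serpinf1 (0.41, adjusted p = 0.0432), Pgc (-2.24, adjusted p = 0.0219), Ano1 (-0.60, adjusted p = 0.0219), Lat (1.05, adjusted p = 0.016) and Ccl8 (2.55, adjusted p = 0.00394). Ighm was at 955, 1315 and 836 CPM with PARPi and at 9200, 13202 and 19234 CPM with both, a log2 change of 3.74 (adjusted p = 0.00106). Chil3 had a mean of 0.205 CPM with PARPi and 208 CPM with both (log2 change 9.96, adjusted p = 0.00106). The Ighm libraries did not overlap on either background. Pou2af1, Tppp and Zmynd15 were not called there, with log2 changes of 0.81, -0.37 and 0.04 on PARPi (adjusted p = 0.122, 0.509 and 0.842). That their changes differ between the backgrounds did not pass the test below.

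The test of whether the change with ICB differed between the backgrounds called 0 of 18144 genes (0%) in edgeR, with 946 at an unadjusted p under 0.05, and DESeq2 called 8. Interferon genes leaned one way. All 19 interferon-gamma-inducible genes had a smaller change on PARPi than without it, 9 of them at an unadjusted p under 0.05, and the median change was 0.06 on PARPi and 0.53 alone. All 27 type I genes leaned the same way, 13 at an unadjusted p under 0.05, with medians of -0.47 and 0.01. 0 of these genes passed the adjusted threshold. The backgrounds started at unlike levels. The interferon-gamma-inducible list summed to a mean of 2008 CPM in the controls, 2963 with ICB, 2527 with PARPi and 2586 with both. For the type I list these means were 1692, 1780, 2106 and 1624 CPM, and the libraries given both had 1768, 1781 and 1324 CPM. What part the starting level or the lowest library had in this lean was not tested. T cell genes had medians of 0.78 both on PARPi and alone.

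**Figure D5:**
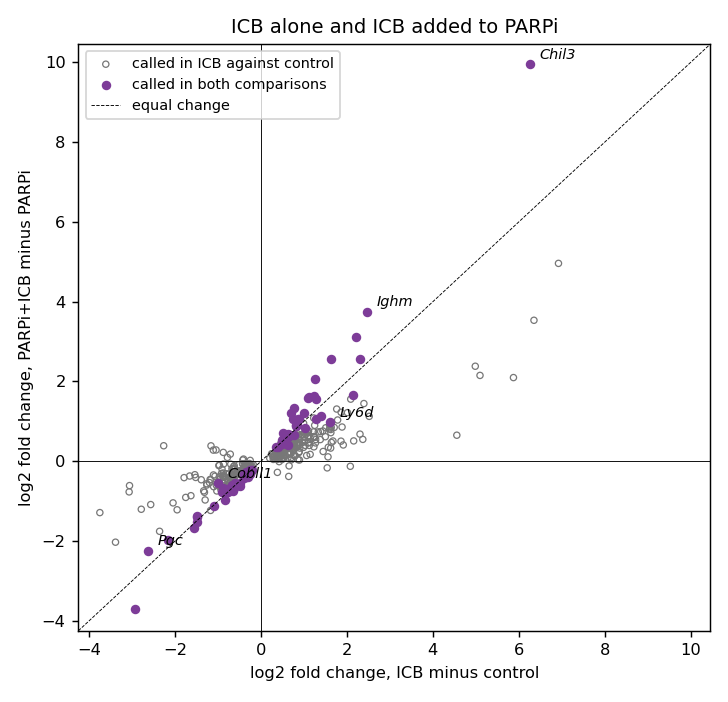
Log2 fold change of the 400 genes called in ICB against control (horizontal) and the change of the same genes when ICB was added to PARPi (vertical), with genes called in both comparisons filled and a dashed line of equal change. Of the genes at the right, 217 of 223 lie above 0, and of those at the left, 167 of 177 lie below 0.

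Compared with olaparib alone, ICB alone differed at 102 genes (0.562%), 30 higher (0.165%) and 72 lower (0.397%). This count ran from 0 without PARPi replicate 1 to 265 without ICB replicate 3, with 1 without PARPi replicate 3, 7 without ICB replicate 1, 8 without ICB replicate 2 and 11 without PARPi replicate 2. Ighm was higher with ICB by 2.45 ± 0.41 on the log2 scale (adjusted p = 0.022), while Igkc stood at 16828, 14686 and 11273 CPM with PARPi and differed by 0.00 ± 0.35 (adjusted p = 0.999). Igha was at 7088, 7034 and 3669 CPM with PARPi (adjusted p = 0.79). The kappa chain thus showed no difference beyond an SE of 0.35, and the mu chain did. Rgs22, a regulator of G protein signalling, and Tmie, a protein of the hair cell transduction channel, were higher with ICB by 2.35 ± 0.41 and 1.22 ± 0.20, both at low levels (adjusted p = 0.022). Cobll1 was lower with ICB by -0.81 ± 0.11, at 54.2, 45.8 and 55.0 CPM with PARPi (adjusted p = 0.0087). Incenp, a subunit of the chromosomal passenger complex, was at 92.3, 92.0 and 86.6 CPM with PARPi and 56.8, 64.8 and 66.9 CPM with ICB (-0.52 ± 0.07, adjusted p = 0.0087), and Cit, the citron kinase of cytokinesis, at 37.3, 32.9 and 38.4 against 19.5, 20.9 and 25.7 CPM (-0.72 ± 0.12, adjusted p = 0.022). Lyz1, a lysozyme of Paneth cells, was lower by -1.62 ± 0.25. Of the 20 mitosis genes 9 were called lower with ICB than with PARPi, with a median of -0.68. For plasma cell genes the median was 0.00 and 0 of 12 were called. Their mean sums were 1273 CPM in the controls, 2858 with ICB and 2920 with PARPi. Those of T cell genes were 171, 230 and 231 CPM, and those of MHC class I genes 6248, 7659 and 7596 CPM, with 0 called in either list. The 223 genes called higher against control had a median log2 change of 0.23 against PARPi and 0.81 against control. For the 177 called lower these medians were -0.34 and -0.64.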

How the data were processed

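Per the submitters' processing notes, the authors aligned reads with STAR to GRCm38 and counted them per gene with HTSeq. Versions and the strand setting are not given in the sources used here. Per the labels' protocols, libraries were stranded and made from total RNA after depletion of cytoplasmic RNA. The deposited counts are whole numbers, not normalized. A deposited table of log2 RPKM (1 added by the authors) served as an alternative. edgeR 4.0.16 in R 4.3.3 (TMM, filterByExpr with a minimum count of 10, quasi-likelihood F test) was fitted to all 20 libraries, with 1 coefficient per group and no covariate, on 18144 of 55406 genes. Genes filtered out held at most 0.0518% of a library's counts. P-values were adjusted by Benjamini-Hochberg within a comparison, and genes were called at 0.05. Fold changes are given as log2 with SE. The SE was derived from the test, as the size of the log2 change over the square root of its F value. The spread between replicates exceeded counting noise (chi-squared per degree of freedom 20.0 to 39.5), so no library was a copy of another. The common biological coefficient of variation was 0.208. CPM do not correct for gene length.

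Genes were named by rule: up to 12 per direction with the largest change among those called, at a mean of 1 CPM or more, with groups apart and called in all 6 leave-out fits (10 genes that rose met this, so Chil3 and Mcpt1 were added without the last condition), up to 4 members per list by smallest p, the immunoglobulin constant region, drug targets and the edited genes. Members and lists were chosen with earlier results of these data known. DESeq2 1.42.0, limma 3.58.1 and the other alternatives are reported at the end.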

Additional observations from a re-analysis of the deposited data

How the results depend on the processing

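Between ICB and control, 400 genes were called. The count was 402 with DESeq2's size factors, 420 with no filter, 287 with the 6 libraries alone, 356 without the libraries that hold acinar RNA and 285 by limma on the log2 RPKM. It was 0 in a test against a log2 change of 0.5 (715 at an unadjusted p under 0.05), 0 with the covariate of 3 RNAs (1937) and 1015 by DESeq2's Wald test, and 72 to 316 with 1 library left out. Between ICB and PARPi (102), it was 279 without the acinar libraries, 516 by DESeq2 and 0 to 265 with 1 left out. For ICB added to PARPi (229), it was 805 by DESeq2 and 26 to 293. For the interaction (0), it was 1 without the acinar libraries, 8 by DESeq2 and 0 to 2. The causes were not tested. As a replicate block, the replicate numbers gave 417 calls for ICB against control, 63 for ICB against PARPi, 277 for ICB added to PARPi and 0 for the interaction. Deviations of same-numbered libraries correlated at 0.031, 0.024 and 0.082, and those of differently numbered libraries at -0.071 to 0.044. Not every library correlated best with its own number. With 3 libraries per group, these values cannot settle whether the numbers mark a pairing.

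Of 71 named genes that were called, 0 changed direction in 15 alternatives. With 1 library left out 28 to 43 kept their call, with the replicate block 65, by limma 41 of 64 and by DESeq2 70 of 70. With the covariate, or against a log2 change of 0.5, 0 of the 71 kept it. The naming rule fixed part of this, since 10 genes that rose and 12 that fell were named for being called in every leave-out fit. These counts therefore cannot show how stable calls are in general. Of all calls, 24 of 223 higher and 47 of 177 lower were kept without control replicate 2. Among uncalled genes, Vegfa became 0.013 with the covariate, and Mir6236, which is part of it, 0.53. Trp53 ran from -0.015 to 0.036 with 1 library left out.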

Other observations

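The genes of this and the following paragraph were picked after their values were seen, so they stand for no group. Il5, the cytokine that feeds eosinophils, had 0, 0 and 0 reads in the controls and 14, 3 and 5 with ICB (adjusted p = 0.0248 in edgeR). Il1rl1, the interleukin 33 receptor ST2, stood at 1.76, 2.49 and 2.28 CPM and at 3.87, 4.09 and 7.75 CPM (log2 change 1.27 ± 0.31, adjusted p = 0.0385), with ICB replicate 3 the highest. On PARPi its change was 2.05 (adjusted p = 0.00394), while that of Il5 was 2.10 (adjusted p = 0.129). Il5 was called in 2 of the 6 leave-out fits and Il1rl1 in 1. Of 9 mast cell genes 0 were called, with a median log2 change of 0.07, and of 3 eosinophil genes Prg2 was called, with a median of 0.31.

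Gas6, a ligand of the TAM receptors, stood at 99.9, 119 and 96.4 CPM in the controls and at 211, 159 and 169 CPM with ICB (log2 change 0.78 ± 0.15, adjusted p = 0.0136). The gelatinase Mmp2 had 85.9, 82.7 and 75.8 CPM against 124, 106 and 124 CPM (0.53 ± 0.11), and Col8a2, a short-chain collagen, 8.09, 9.0006 and 7.04 CPM against 14.8, 12.2 and 15.7 CPM (0.82 ± 0.15). Each was also called higher when ICB was added to PARPi. With ICB alone, the list of fibroblast and matrix genes had 9 of 23 negative and Col14a1 fell. On PARPi, 18 of the 23 were positive, 4 were called higher and 0 lower, and the median was 0.32. The share of all genes called higher there was 0.882%. The acute phase serpin Serpina3n had 14.98, 14.3 and 14.9 CPM against 24.4, 28.6 and 42.3 CPM (1.11 ± 0.22, adjusted p = 0.0162), with ICB replicate 3 the highest. It was called in 3 of the 6 leave-out fits, and not without the libraries that hold acinar RNA (adjusted p = 0.0646). Vsig1, a junction protein of gastric epithelium, stood at 7.96, 6.75 and 5.89 CPM in the controls and at 3.46, 2.59 and 1.32 CPM with ICB (adjusted p = 0.024). Lgals2, a galectin, had 17.97, 35.5 and 16.3 CPM against 9.997, 9.13 and 5.82 CPM (adjusted p = 0.0225). Of 2 intestinal epithelium genes tested, 1 had a positive and 1 a negative log2 change, and 0 were called in edgeR, with 0 at an unadjusted p under 0.05.

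The median exon length of the genes that fell was 5377 bases, that of the genes that rose 3288, and that of all tested genes 3741. The octamer ATGCAAAT, bound by the factors that Pou2af1 assists, was in 1.74% of the RefSeq windows on either strand, in 0 of 14 windows of plasma cell genes and in 2 of 14 of B cell genes.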
